A study of Sus scrofa with 4 samples.

Results

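Mannose-binding lectin and the complement components are plasma proteins of innate defence, made in large part by the liver. The members described here are 19 probe sets for 16 genes, out of 15383 probe sets in the deposited expression table. A probe set is the group of short array probes that reads a single transcript. Of the 19, 5 carry the symbol MBL2, C2, C3, C7 or CFD together with a matching description by the array design, and 14 were added because that description contains "complement component", "complement factor" or "mannose-binding lectin". Names rest on weaker ground for 13 probe sets, which the array design describes only as similar to a named protein of another species, and for 3 of those the similarity is called weak (C4BPA, CR1 and C9). The probe set named C9 here is titled as similar to rat C8A in another annotation column, and the probe set named CFI as similar to a mouse enterokinase, so the identity of both is uncertain.

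Complement can be started in 3 ways. In the lectin pathway, mannose-binding lectin binds sugars on microbes and its attached proteases cleave C4 and C2. In the classical pathway C1q bound to antibody does the same through C1r and C1s. The alternative pathway runs on C3, factor B and factor D. All meet at C3, and C5 to C9 then build the membrane attack complex, while C4-binding protein and factor I hold the cascade in check.

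The study fed clenbuterol, a β2-adrenergic agonist, to 2 Chinese miniature pigs, 1 male and 1 female. From 8 weeks of age their feed carried 25 mg/kg, given 2 times daily, in the first 4 weeks and 50 mg/kg in the last 4. The 2 control pigs, again 1 male and 1 female, had the same handling and diet without the drug, and liver RNA of all 4 pigs was taken at 4 months. The design text speaks of full sibs of the same sex within groups and leaves it unclear how sibs were divided; if sibs shared a treatment, litter and treatment cannot be told apart.

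Levels are log2 values from GCRMA, a method that corrects each probe for background by its sequence. The table gives the group of each array but not its replicate number or sex, so the arrays of a group are called a and b. A second deposited table, the series values, holds linear intensities with the replicate number, where replicate 1 is the male and replicate 2 the female. Differences are clenbuterol minus control, fitted with limma over the 11931 probe sets that reached a log2 value of 4 on at least 2 of the 4 arrays, and called at a Benjamini-Hochberg adjusted p of 0.05. All 19 members passed this filter. Every SD is over 2 arrays, the labels call the 2 arrays of a group biological replicates, and their number limits the precision. The tissue label held in the markers: ALB, which encodes albumin, read 15.29 and 15.31 in clenbuterol livers and 15.31 and 15.32 in control livers. Of 12 hepatocyte markers 9 were measured, 0 were called in either direction by limma, and their summed level (log2) was 18.05 and 18.07 in clenbuterol livers and 18.06 and 18.09 in control livers. APOB was dim, at 3.46 and 5.73 in clenbuterol livers and 4.42 and 5.19 in control livers. The other measured hepatocyte markers lay between 14.43 and 15.58, near the highest value of any probe set (15.61). Whether compression there hides a shift in hepatocyte content was not tested.

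Among the 19 members 7 were called, 5 higher and 2 lower in clenbuterol livers. Over all tested probe sets 23.8% were called, 11.4% higher and 12.4% lower. Among the members MBL2 fell the most, and C7 rose the most. In the series values 3 members were called, MBL2 lower and C7 and C4BPB higher, against 11.1% of all tested probe sets, 5.78% higher and 5.33% lower. With the replicate number as a block in that fit, 3 members were again called, 2 higher and 1 lower, against 8.83% of all, 4.52% higher and 4.32% lower. The differences of the members had a median of 0.14 (log2), against −0.03 over all tested probe sets. In the GCRMA values 17 of the 19 differences lay above 0, against 45.4% of all tested probe sets, whereas in the series values 14 lay above 0, against 46.9%. Scaling the series values to RNA controls added to each array (spikes) moved the median of all probe sets to 0.33, against −0.03 in the unscaled series values, and put 17 members above 0, against 81.9% of all. In the scaled series values 2741 probe sets were called higher and 257 lower, against 690 higher and 636 lower unscaled. Of the members 5 were then called higher and 1 lower, against 2 higher and 1 lower unscaled. The arrays of the groups did not overlap in 13 members that were higher and 2 that were lower, against 30.8% of all tested probe sets that were higher and 37.3% that were lower (68.1% in either direction). Lack of overlap was therefore common over all tested probe sets, and the cause of this was not tested. For the 9 members with a mean level of at least 12, all 9 differences lay above 0. Of the 552 tested probe sets in that range 53.6% did. That mean includes the clenbuterol arrays, so the change itself affects which members fall in the range. MBL2, at 12.98 in control livers, fell outside it, and C4BPB, at 11.88 in control livers, fell inside it. The count is therefore not independent of the differences.

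**Figure D1:**
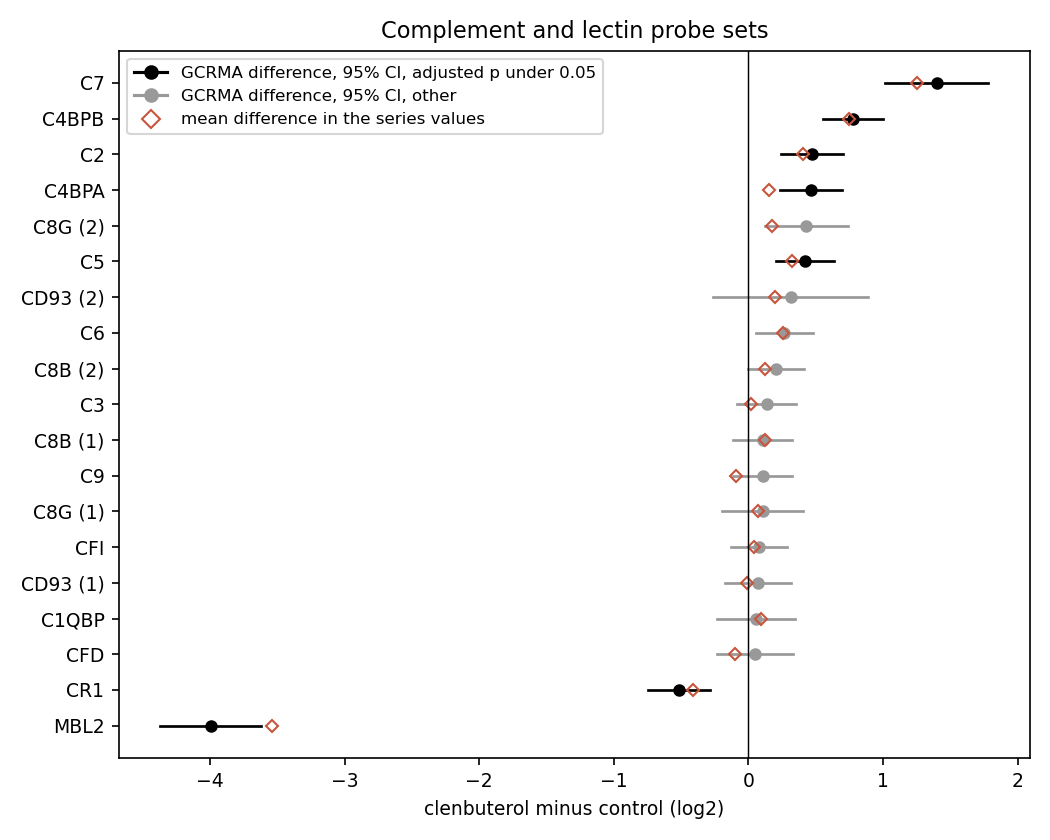
Difference between clenbuterol and control livers (log2 GCRMA values, x axis) for each of the 19 probe sets, with the 95% confidence interval from limma; black marks those with an adjusted p under 0.05 and open diamonds the mean difference in the series values. MBL2 lies at −4.00, far from the other 18, which run between −0.52 and 1.40.

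MBL2 encodes the C-type mannose-binding lectin, the recognition molecule that starts the lectin pathway. Its GCRMA value was 8.85 and 9.12 (log2) in clenbuterol livers, against 12.87 and 13.09 in control livers. The mean was 8.99 ± 0.20 in clenbuterol livers and 12.98 ± 0.15 in control livers (SD, n = 2 each). The groups stood far apart and the arrays within a group close together. The difference was −4.00 ± 0.14 (log2, SE), with a 95% confidence interval of −4.37 to −3.62 and an adjusted p of 0.00206 by limma. This is 15.9-fold lower, and MBL2 stood at rank 6 of the 11931 differences counted from the lowest. In the series values the male on clenbuterol had an intensity of 907.8, against 10275 in the control male. The female on clenbuterol had 973.7, against 11603 in the control female. The log2 difference was −3.50 for the males and −3.57 for the females. In whole liver RNA, fewer cells of a type and less RNA per cell cannot be told apart.

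Of the other recognition molecules of the lectin pathway, 2 were tested and neither was called. FCN2, a ficolin that can take the place of mannose-binding lectin, had a difference of 0.14 with an interval of −0.08 to 0.36. COLEC11, a collectin of the liver, was at −0.16 with an interval of −0.39 to 0.08. The adjusted p by limma was 0.292 for FCN2 and 0.263 for COLEC11. SFTPD, surfactant protein D, a collectin known best from the lung, read 7.63 and 7.45 in clenbuterol livers and 6.79 and 6.70 in control livers. It rose by 0.79 ± 0.10 (log2, SE), with an adjusted p of 0.0134 by limma. FCN1 and COLEC12 lay below the filter.

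**Figure D2:**
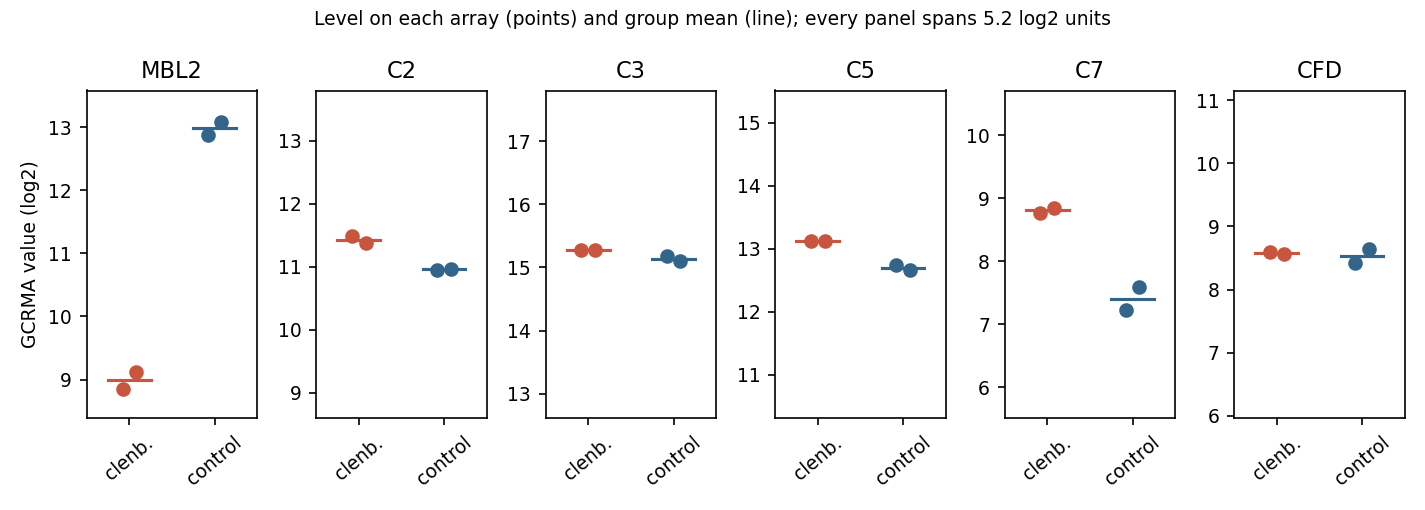
GCRMA value (log2, y axis) on each array (points) with the group mean (line), clenbuterol left and control right, for MBL2, C2, C3, C5, C7 and CFD; every panel spans the same number of log2 units. The 2 clenbuterol arrays lie below both control arrays for MBL2, above them for C2, C3, C5 and C7, and between them for CFD.

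C2 is the protease that C1s and the lectin-bound proteases cleave to form the C3 convertase. Its value was 11.49 and 11.37 (log2) in clenbuterol livers, against 10.96 and 10.97 in control livers, with no overlap. C2 rose by 0.47 ± 0.09 (log2, SE), 1.39-fold, with an adjusted p of 0.0275 by limma. Series intensities were 4701 in the male on clenbuterol, against 3480 in the control male, and 4544 in the female on clenbuterol, against 3498 in the control female. The call did not hold in the series values (adjusted p = 0.0744 by limma) or when any 1 of the 4 arrays was left out, where its adjusted p ran up to 0.104.

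C3, the central component whose cleavage all 3 pathways share, lay at the top of the measured range. Its value was 15.27 and 15.28 (log2) in clenbuterol livers, against 15.18 and 15.10 in control livers. The highest value of any probe set on the 4 arrays was 15.61. The groups did not overlap, but the difference of 0.14 ± 0.08 (log2, SE) did not pass (adjusted p = 0.288 by limma), and its interval ran from −0.08 to 0.36. The series values put it at 0.022. Whether signals this near the top of the range were compressed was not tested.

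CFD encodes factor D or adipsin, the protease that cleaves factor B, made in large part by fat tissue. Its value was 8.59 and 8.57 (log2) in clenbuterol livers, against 8.42 and 8.64 in control livers, so the treated arrays lay within the control range. The difference was 0.050 with an interval of −0.23 to 0.33, and it did not pass (adjusted p = 0.762 by limma). It was −0.10 in the series values, where the male pair gave 0.036 and the female pair −0.24. Of 6 adipocyte markers the 2 measured, ADIPOQ and LPL, were at most 2.66 on every array and below the filter.

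C7 is the component with which the membrane attack complex first inserts into a membrane. It read 8.76 and 8.85 (log2) in clenbuterol livers, against 7.23 and 7.58 in control livers. The control arrays differed more from each other than the treated ones did, but the groups did not overlap. C7 rose by 1.40 ± 0.14 (log2, SE), 2.64-fold, with an interval of 1.01 to 1.78 and an adjusted p of 0.00919 by limma. In the series values it rose as well, at 1.25 with an adjusted p of 0.0223 by limma. The male on clenbuterol had an intensity of 1106, against 456.8 in the control male, and the female on clenbuterol 1355, against 576.3 in the control female. Without either clenbuterol array the adjusted p by limma was 0.0568 or 0.0548. A further probe set carries the C7 symbol without a matching description and was therefore not counted among the members. It read 9.59 and 9.64 in clenbuterol livers and 9.01 and 8.91 in control livers, a rise of 0.66 ± 0.09 (log2, SE) with an adjusted p of 0.0137 by limma, and was not called in the series values.

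The other members of the membrane attack complex differed less. They also read at higher levels than C7, and whether signal level affects the size of a difference was not tested. C5, whose cleavage gives the anaphylatoxin C5a and starts the assembly, read 13.12 and 13.12 (log2) in clenbuterol livers, against 12.73 and 12.66 in control livers. It rose by 0.42 ± 0.08 (log2, SE) with an adjusted p of 0.0299 by limma, the closest to the threshold among the called members, and lost the call in the series values (adjusted p = 0.115 by limma) and when any 1 of the 4 arrays was left out. C6, which joins C5b, was at 14.39 and 14.37 in clenbuterol livers, against 14.14 and 14.09 in control livers. The groups did not overlap, but C6 did not pass, at 0.27 ± 0.08 (log2, SE) with an adjusted p of 0.0768 by limma. In all, 2 of the 8 probe sets of this complex were called, C5 and C7, both higher, a share of 25.0%. Of all tested probe sets 11.4% were called higher and 23.8% in either direction. The differences of the 8 ran from 0.11 to 1.40 with a median of 0.24.

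C8, which carries the complex into the membrane, was read for 2 of its chains by 2 probe sets each. For the beta chain, C8B, probe set 1 was at 0.11 with an interval of −0.11 to 0.33 and probe set 2 at 0.20 with an interval of −0.0028 to 0.41. For the gamma chain, C8G, probe set 1 read 12.55 and 12.32 in clenbuterol livers and 12.28 and 12.38 in control livers, and the groups overlapped. C8G probe set 2 read 10.07 and 9.93 in clenbuterol livers and 9.46 and 9.67 in control livers, at 0.43 ± 0.12 (log2, SE), the closest to the threshold among the members not called (adjusted p = 0.0610 by limma). The alpha chain, C8A, outside the members, was at 0.34 ± 0.09 and did not pass either (adjusted p = 0.0565 by limma). C9, the pore-forming component, was at 0.11 with an interval of −0.11 to 0.32 and at −0.094 in the series values.

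Among the inhibitors, C4-binding protein keeps C2 from C4b. Its beta chain was called higher, and so was a probe set weakly similar to its alpha chain. C4BPB, the beta chain, read 12.68 and 12.64 (log2) in clenbuterol livers, against 11.93 and 11.83 in control livers. C4BPB rose by 0.78 ± 0.08 (log2, SE), 1.71-fold, with an adjusted p of 0.0103 by limma, and by 0.75 in the series values with an adjusted p of 0.0274 by limma. Without either clenbuterol array its adjusted p by limma was 0.0580 or 0.0531. The probe set weakly similar to C4BPA, the alpha chain, read 6.57 and 6.45 in clenbuterol livers, against 6.06 and 6.03 in control livers, without overlap. It rose by 0.46 ± 0.09 (log2, SE) with an adjusted p of 0.0286 by limma. In the series values it was not called, with −0.016 for the males and 0.32 for the females, and it lost the call when any 1 of the 4 arrays was left out. Another probe set with the C4BPA symbol, described by the array design as pig apolipoprotein R and not a member, was at 0.33 ± 0.09 and did not pass (adjusted p = 0.0587 by limma). CFI, factor I, the protease that inactivates C3b and C4b, was at 0.080 with an interval of −0.13 to 0.29 and did not pass.

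The receptors among the members are mostly known from blood and endothelial cells rather than hepatocytes. A probe set weakly similar to CR1, the receptor for C3b and C4b, read 8.88 and 8.78 (log2) in clenbuterol livers, against 9.38 and 9.32 in control livers. It fell by 0.52 on the log2 scale, with an adjusted p of 0.0221 by limma, and was at −0.41 in the series values and −0.058 in the series values scaled to the spikes, with no call in either, nor with any 1 of the 4 arrays left out. CD93, named on the array as a C1q receptor and found on endothelium and myeloid cells, did not pass in either probe set. CD93 probe set 1 was at 0.070 and CD93 probe set 2, at the edge of the filter, read 4.06 and 4.66 in clenbuterol livers and 4.05 and 4.04 in control livers. C1QBP, a C1q-binding protein found mainly in mitochondria, was at 0.056 with an interval of −0.23 to 0.35.

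The rest of the pathway was taken from a list of 52 complement genes outside the named 5, of which 25 had a probe set outside the members whose description names the gene. These came to 30 probe sets, 26 of them tested. By limma 5 were called higher and 0 lower. The share called higher was 19.2%, against 11.4% over all tested probe sets, where 23.8% were called in either direction. The median difference was 0.17. In the GCRMA values 22 of the 26 lay above 0, against 45.4% of all tested probe sets, and in the series values 19, against 46.9%. The C1 components of the classical pathway did not pass. C1QA was at 0.12, C1QB at 0.16, C1QC at 0.28, C1R at 0.18 and C1S at 0.14.

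C4A, cleaved by both C1s and the lectin-bound proteases, was 14.02 and 13.94 (log2) in clenbuterol livers, against 13.63 and 13.62 in control livers. It rose by 0.36 ± 0.08 (log2, SE) with an adjusted p of 0.0430 by limma, and was not called in the series values. CFB, the protease of the alternative pathway convertase, had 2 probe sets with unlike differences. CFB probe set 1 read 14.74 and 14.81 in clenbuterol livers and 14.60 and 14.61 in control livers, at 0.17 ± 0.08 (log2, SE), and did not pass. CFB probe set 2 read 13.48 and 13.33 in clenbuterol livers and 12.02 and 11.74 in control livers, and rose by 1.53 ± 0.13 (log2, SE) with an adjusted p of 0.00655 by limma. CPN1, the carboxypeptidase subunit that trims anaphylatoxins, also differed between its probe sets. It rose by 1.05 ± 0.08 in CPN1 probe set 2 (adjusted p = 0.0058 by limma), while CPN1 probe set 1 was at 0.25 ± 0.10 and did not pass.

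ITGB2, the shared chain of leukocyte complement receptors, read 8.45 and 8.50 in clenbuterol livers, against 7.56 and 7.94 in control livers. It rose by 0.73 ± 0.15 (log2, SE) with an adjusted p of 0.0343 by limma and was not called in the series values. Among the soluble inhibitors, SERPING1 (C1 inhibitor) was at 0.065 and CLU (clusterin) at 0.039. VTN, vitronectin, was at −0.15 and −0.17 in its 2 probe sets. None of these passed. CFP, properdin, which stabilises the alternative convertase, did not pass in either probe set. CFP probe set 1 was at 0.37 ± 0.09 (log2, SE) with an adjusted p of 0.0550 by limma, and at 0.17 in the series values. CFP probe set 2 was at 0.17 ± 0.24 (log2, SE) with an adjusted p of 0.634 by limma, and its groups overlapped.

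**Figure D3:**
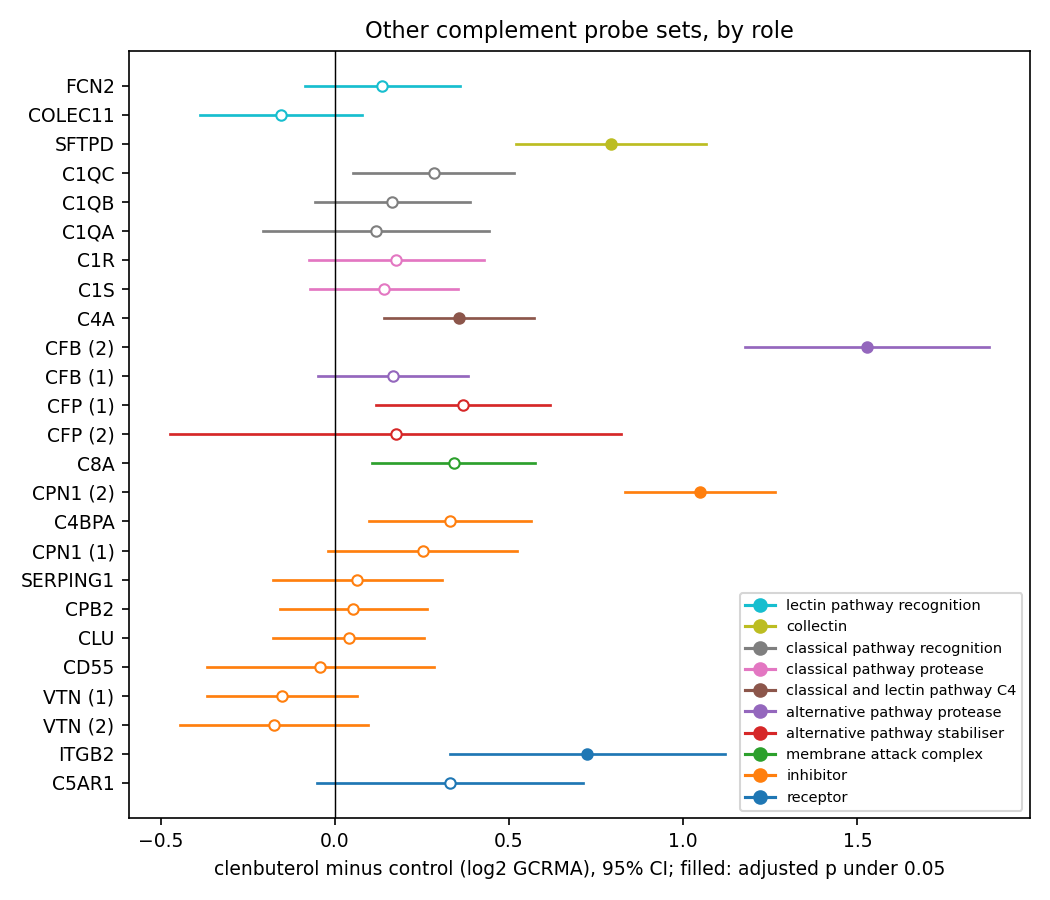
Difference between clenbuterol and control livers (log2 GCRMA values, x axis) with 95% confidence intervals from limma for the tested complement probe sets outside the members that are reported here, grouped by colour into roles; filled points have an adjusted p under 0.05. CFB probe set 2 at 1.53 and CPN1 probe set 2 at 1.05 lie farthest from 0.

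The genes most alike to MBL2 and C7 over the 4 arrays were sought among 778 named genes outside the members, by the root mean square distance between mean-centred log2 values. With 2 arrays in each group, this distance depends mainly on the group difference and the gaps within groups. A small distance therefore marks a change of similar size, and shared regulation was not tested. CBR1, a carbonyl reductase, was closest to MBL2, at a distance of 0.35. Its levels were 3.99 and 4.04 in clenbuterol livers, at the edge of the filter, and 8.63 and 8.73 in control livers, and its difference of −4.67 came to −3.06 in the series values. A second CBR1 probe set went the other way, with 7.22 and 7.53 in clenbuterol livers and 4.17 and 4.39 in control livers, a rise of 3.09 ± 0.15 (log2, SE) with an adjusted p of 0.00349 by limma. APOA4, an apolipoprotein, followed at a distance of 0.64 and APCS, serum amyloid P, at 1.11. Their differences were −2.73 for APOA4 and −1.80 for APCS, smaller than that of MBL2. For C7 the closest were CTGF, a matrix-associated growth factor, at 0.031, the collagen chain COL1A1 at 0.054 and PTBP3, an RNA-binding protein, at 0.058. CTGF was 6.84 and 6.90 in clenbuterol livers and 5.23 and 5.65 in control livers, a difference of 1.43 that came to 0.48 in the series values. Further probe sets of CTGF and PTBP3 rose too, by 0.96 and 1.60. A further probe set carries the COL1A1 symbol without a matching description and went the other way. It was at −0.45 ± 0.09 (log2, SE) with an adjusted p of 0.0335 by limma, and was not called in the series values (−0.17).

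Markers of other cell types were set beside these changes. Of 9 stellate cell and fibroblast markers 6 were measured, COL1A1 by the probe set with the matching description. Of these 6 markers 4 were called higher (COL3A1, DCN, COL1A1 and TIMP1) and 1 lower (RGS5). Their summed level (log2) was 13.01 and 12.95 in clenbuterol livers and 12.49 and 12.49 in control livers, in the same direction as C7. Of 12 Kupffer cell and macrophage markers 7 were measured and CD14 and AIF1 were called higher, with a summed level of 14.89 and 14.81 in clenbuterol livers and 14.57 and 14.61 in control livers. That list holds C1QA, C1QB and C1QC, themselves complement genes, and none of these was called. The summed levels add linear values, so the brightest markers weigh most. C1QC read 13.59 and 13.52 in clenbuterol livers and 13.22 and 13.32 in control livers. In the stellate cell and fibroblast sum, COL3A1 read 12.72 and 12.64 in clenbuterol livers and 12.24 and 12.24 in control livers. For T and NK cells 3 of 8 markers were measured and CD2 was called higher, with a summed level of 8.66 and 8.63 in clenbuterol livers and 8.17 and 7.86 in control livers. For endothelium 5 of 7 were measured, PECAM1 and CLDN5 called higher and VWF lower, with a summed level of 10.44 and 10.34 in clenbuterol livers and 10.31 and 10.30 in control livers. No neutrophil or B cell marker was measured under the naming rule. The gap between 3′ and 5′ control probe sets, a measure of RNA length, was lower in both treated pigs than in both control pigs in 7 of 10 such pairs. The part of these cell types and of RNA length in the complement changes was not tested.

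The pairs of 1 sex were compared to see whether the male and the female answered alike. In the series values 14 of the 19 members lay on the same side of 0 in both pairs, against 74.5% of all tested probe sets. In 13 members the pairs differed by less than 0.1 (log2). The share of all tested probe sets within that bound was not worked out, so this count is not read as particular to the members. C7 gave 1.28 for the males and 1.23 for the females, and C4BPB 0.70 for the males and 0.79 for the females. The widest gap was 0.37, in CD93 probe set 2, a dim probe set. Wide gaps were not limited to dim probe sets. C8G probe set 2, a brighter one, gave 0.36 for the males and −0.0039 for the females. C4BPA gave −0.016 for the males and 0.32 for the females. With 1 pig of each sex in a group, a sex difference in response leaves no residual degrees of freedom and was not tested.

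**Figure D4:**
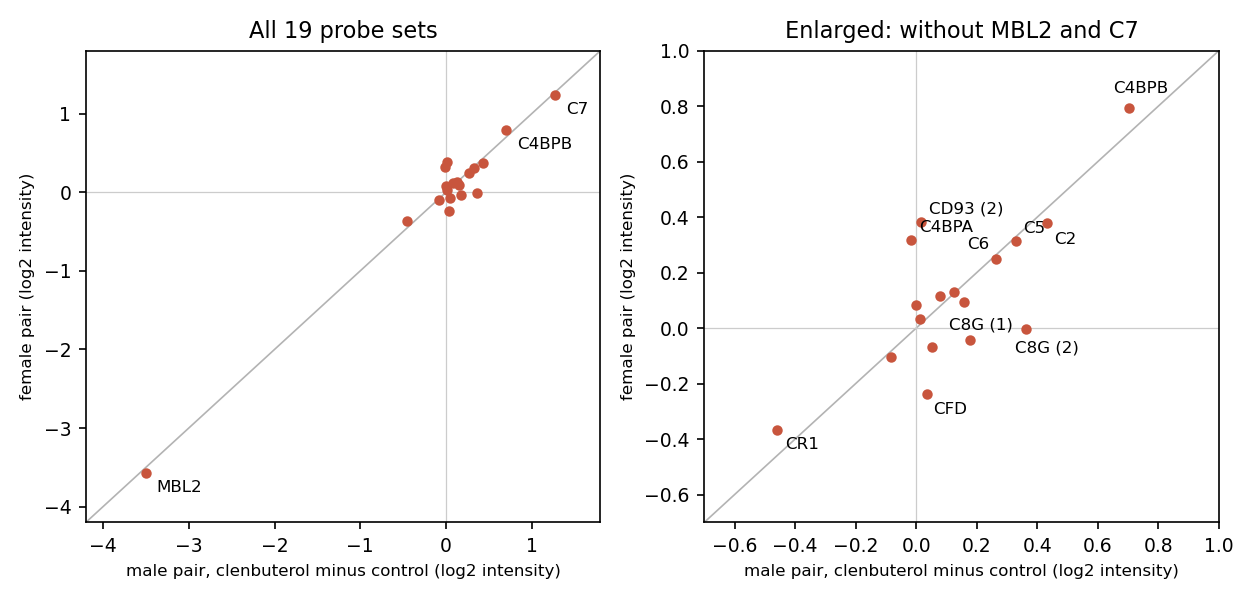
Difference between clenbuterol and control (log2 intensity, series values) in the male pair (x axis) and the female pair (y axis) for the 19 probe sets, all on the left and enlarged without MBL2 and C7 on the right; the diagonal marks equal differences. MBL2 at −3.50 and −3.57 and C7 at 1.28 and 1.23 (male pair, then female pair) lie close to the diagonal.

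Males were compared with females over both treatments in a fit with treatment in the model, where sex and replicate number cannot be told apart. By limma 0 of the 19 members were called, against 0.00838% of all tested probe sets (1 of 11931). At an unadjusted p under 0.05 there were 2 members by limma, CD93 probe set 2 and C7, against 895 of 11931. C7 averaged 9.47 (log2 intensity) in males and 9.79 in females, a difference of −0.31 ± 0.11 (SE) with an adjusted p of 0.655 by limma. MBL2 was at −0.14 between males and females.

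In the authors' deposited table, 2 of the 19 members are among the 691 probe sets flagged as chosen by both SAM and limma. These are MBL2, with a signed fold of −15.9 in the authors' deposited table, and C7, with 2.64. That table rests on the same 4 arrays and is not independent of the fit given here.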

How the data were processed

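Liver RNA of 4 pigs was hybridised to Affymetrix porcine arrays, 1 per pig, from 6 ug of total RNA per the labels' protocols. The authors deposited log2 values made with GCRMA, per the file headers, and added group means. The same deposited table lists for each probe set a score (the signed fold), a p-value from limma, a q-value from SAM and, as another kind of column, a 0 or 1 flag. A second deposited table holds intensity values on a linear scale for 24123 probe sets. With 2% trimmed from each end they averaged 500.1 on every array. The sources used here do not say how they were made or which GCRMA version and settings were used.

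Gene IDs were looked up in an Sscrofa11.1 table to update symbols, and nothing else was taken from it. A symbol counted as agreeing where the array description held it or the gene's title. This rule was set after the annotation had been read. With limma 3.58.1 (R 4.3.3), lmFit and eBayes were run on all filtered probe sets with group as the only term, and the fit was tested on simulated data. Sex, with treatment in the model, was fitted on log2 intensities. An exact permutation test of 2 against 2 cannot go below a p of 0.333, so none was used. Every member was described, the called ones and the named 5 by array. Pathway genes were named where called, up to 4 in each direction by p (CPN1, CFB, SFTPD and ITGB2). C4A and the uncalled ones described were added after their values were seen. CPB2, CD55, CD59 and C5AR1, none of them called, are counted but not described. A gene of the pathway list is counted but not reported here by name. For MBL2 and C7 the 3 most alike named genes were given. Members, gene lists and rules were chosen with earlier results of these data known. Alternatives were the series values, a replicate block, no or a stricter filter, the series values scaled to hybridisation spikes, a variance trend and leaving out each array.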

Additional observations from a re-analysis of the deposited data

Results flagged for a closer look

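In 5 members the male and the female pair of the series values lay on opposite sides of 0 (log2, clenbuterol minus control), and this difference between the sexes was not tested. CFD gave 0.036 for the males and −0.24 for the females. CD93 probe set 1 gave 0.052 for the males and −0.068 for the females. C8G probe set 1 gave 0.18 for the males and −0.041 for the females, and C8G probe set 2 gave 0.36 for the males and −0.0039 for the females. C4BPA gave −0.016 for the males and 0.32 for the females. Of these 5 probe sets C4BPA alone was called in the GCRMA values. Over all tested probe sets, 74.5% had both pairs on the same side of 0, against 14 of 19 members.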

How the results depend on the processing

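MBL2 kept its direction and its call in all 10 alternatives, between −4.13 and −3.18 (log2), with adjusted p of at most 0.0322 by limma. C7 ran from 1.22 to 1.58 when an array was left out and lost its call without clenbuterol array a (1.44) or clenbuterol array b (1.36). Leaving out 1 array left 579 to 1213 calls over all probe sets, 309 to 603 higher and 270 to 610 lower, against 2843, 1365 and 1478 with all 4. Of the members it left 1 to 3 called, 0 to 2 higher and 1 lower. C2, C5, C4BPA and CR1 lost their calls without any 1 of the 4 arrays. The series values gave 1326 calls, 690 higher and 636 lower, and 3 members, 2 higher and 1 lower. With a replicate block they gave 1054 calls, 539 higher and 515 lower, and the same numbers of members. Same-numbered arrays deviated together with a correlation of 0.18 over probe sets, with only 2 pairs, and the number marks the sex. Scaled to hybridisation spikes, the series values gave 2741 higher and 257 lower, with 5 members higher and 1 lower. A variance trend gave 3325 calls over all probe sets, 1596 of them higher, and 8 members higher, with C6, C8B probe set 2 and C8G probe set 2 among them. Members that changed sign were all uncalled. In the series values, with and without a replicate block, CFD was at −0.10, CD93 probe set 1 at −0.0081 and C9 at −0.094. With an array left out, CFD ran from −0.059 to 0.16, C1QBP from −0.058 to 0.17, CD93 probe set 1 from −0.0052 to 0.15 and C8G probe set 1 from −0.0077 to 0.22. The brightest probe set of each gene gave 7 calls and leaving out weakly similar probe sets 5, both chosen after seeing the data. CD93 probe set 2 gave no value at the filter of 6. Males against females gave 0 members called by limma in every setting run. The cause of these changes was not tested.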
